A study of Homo sapiens with 6 samples.

Results

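The genes that write, keep and remove DNA methylation were examined together with QSER1, which limits methylation at developmental genes. They were DNMT1, DNMT3A, DNMT3B, UHRF1, HELLS, TET1, TET2, TET3 and QSER1, 9 of the 19775 genes that had a probe set of their own. Every probe set annotated to 1 of these genes was taken, which gave 23 of the 54613 probe sets tested, and none of the 23 was shared with another gene. The genes were chosen by their log2 differences between siPCARNEQ and siEGFP arrays, among which that of QSER1 was already known to be large. These differences are therefore given as a description, without p-values.

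The cells were LNCaP, an established androgen-responsive line from human prostate cancer, used here as 1 line with no genetic change stated. The siPCARNEQ cells received small interfering RNA (siRNA) against PCARNEQ, a non-coding RNA. The siEGFP cells received siRNA against EGFP, the jellyfish-derived fluorescent protein, whose gene human cells lack. Whether either siRNA acted on other transcripts was not tested. Total RNA of each group was measured on 3 single-colour Affymetrix arrays, called here arrays 1 to 3 of the group, and the labels give neither the dose of siRNA nor the time of harvest. The labels do not name separate cultures, so the spread between arrays may be technical, and p-values below measure only that spread.

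QSER1 fell in 3 of its 4 probe sets, by 2.79, 1.59 and 1.78 on the log2 scale, the last with a siPCARNEQ mean below the median of all probe sets. TET2 fell in 2 of 3 probe sets, TET1 in 1 of 2, and HELLS in 4 of 5, by 0.48 to 1.24. The remaining 5 genes, DNMT1, UHRF1, DNMT3A, DNMT3B and TET3, had no probe set past the threshold, and their differences lay between -0.22 and 0.28. Here and below a probe set is said to rise or fall when limma gave a Benjamini-Hochberg adjusted p below 0.05 over all 54613 probe sets. In all, 10 of the 23 probe sets fell and 0 rose (1 was higher at an unadjusted p below 0.05), where 8.61% of all probe sets fell and 9.92% rose. Because the genes were chosen with this comparison known, nothing is read from that count.

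Methylation of cytosine in CpG pairs is laid down by DNMT3A and DNMT3B on unmethylated DNA, and copied to the new strand after replication by DNMT1. UHRF1 recognises the hemimethylated sites behind the replication fork and recruits DNMT1, and the chromatin remodeller HELLS gives methyltransferases access to packed DNA. The TET enzymes oxidise methylcytosine as the first step of its removal. QSER1 was described in human embryonic stem cells as a partner of TET1 that protects large unmethylated regions at developmental genes from DNMT3A and DNMT3B. In prostate cancer, methylation of promoters such as that of GSTP1 is a common silencing event.

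The promoters of 4 of the genes are shown first. HELLS, DNMT1 and UHRF1 are shown because all 3 serve copying of methylation in S phase, and QSER1 because it had the largest fall. Each sequence is 5′ to 3′ on the gene's strand, from 250 bases before to 50 bases after the RefSeq start site, in GRCh38.p14. Capitals mark matches, on either strand, to the words TTTCGCGC, TTTGGCGC and TTTCCCGC, common forms of the E2F site.
HELLS, chr10:94545538-94545837, plus strand: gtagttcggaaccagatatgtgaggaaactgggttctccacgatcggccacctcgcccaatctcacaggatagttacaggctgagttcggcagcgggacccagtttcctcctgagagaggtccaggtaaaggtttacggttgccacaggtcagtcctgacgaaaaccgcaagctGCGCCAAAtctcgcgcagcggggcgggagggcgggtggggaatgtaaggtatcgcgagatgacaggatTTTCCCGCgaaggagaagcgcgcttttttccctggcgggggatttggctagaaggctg
DNMT1, chr19:10194904-10195203, minus strand: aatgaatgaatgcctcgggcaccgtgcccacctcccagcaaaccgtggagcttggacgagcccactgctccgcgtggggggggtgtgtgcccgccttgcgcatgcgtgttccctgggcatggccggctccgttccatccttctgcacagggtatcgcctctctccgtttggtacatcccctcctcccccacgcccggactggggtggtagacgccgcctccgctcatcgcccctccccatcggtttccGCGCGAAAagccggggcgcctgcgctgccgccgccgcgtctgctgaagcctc
UHRF1 (the first of 3 listed start sites), chr19:4909251-4909550, plus strand: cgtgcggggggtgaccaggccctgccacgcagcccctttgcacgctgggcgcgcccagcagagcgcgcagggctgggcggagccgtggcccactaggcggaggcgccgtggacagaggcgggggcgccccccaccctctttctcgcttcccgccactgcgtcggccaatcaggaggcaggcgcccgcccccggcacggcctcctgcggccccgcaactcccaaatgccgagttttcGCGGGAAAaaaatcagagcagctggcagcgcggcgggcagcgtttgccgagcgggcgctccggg
QSER1, chr11:32892561-32892860, plus strand: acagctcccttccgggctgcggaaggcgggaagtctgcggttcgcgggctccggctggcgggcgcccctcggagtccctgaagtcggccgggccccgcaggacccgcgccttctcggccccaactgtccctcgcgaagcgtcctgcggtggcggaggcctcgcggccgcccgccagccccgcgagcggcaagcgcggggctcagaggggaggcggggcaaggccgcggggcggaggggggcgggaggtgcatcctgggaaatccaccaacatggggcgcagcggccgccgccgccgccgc

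HELLS had a match starting at position -76 and another at -8 relative to the start site, DNMT1 had 1 at -2, and UHRF1 had 1 at -14. QSER1 had none of these words in this window, nor did the first listed start site of DNMT3A, DNMT3B, TET1, TET2 or TET3. For DNMT3B, UHRF1 and TET3 every listed window lies past the gene's own start (chr20:32762385, chr19:4903080 and chr2:73983631). The region at that start was therefore not searched in these genes. The only DNMT3B window was chr20:32779602-32779901. At the first listed start site, 3 of the 9 genes held such a word, against 2.79% of 27305 genes. Of the other words searched on both strands, the CCAAT box was at 3 of the 9 genes (35.7% of all), TTTGAA at 1 (15.4%) and CACGTG at 2 (7.43%). The QSER1 window had 42 CpG pairs, and those of UHRF1, DNMT1 and HELLS had 36, 30 and 22. A match is a run of letters and no measure of binding.

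The arrays themselves set limits on these values. The deposited intensities had the same median, 130.8, on each of the 6 arrays, so a change in total signal cannot be seen. In each group arrays 2 and 3 were closer to one another than to array 1. Their log2 values differed with an SD of 0.136 among siPCARNEQ arrays and 0.129 among siEGFP arrays. Array 1 differed from them with an SD of 0.371 to 0.373 in siPCARNEQ and 0.232 to 0.239 in siEGFP. In siPCARNEQ array 1 the 3' control probe set of ACTB exceeded the 5' one by 1.84 log2 units. On the other 5 arrays this excess was 0.63 to 0.78. For GAPDH it was 0.26 on siPCARNEQ array 1, against -0.14 to -0.03 on the other 5. A larger 3' excess can be a sign of shorter RNA. Each main value is therefore also given by array number. The median log2 intensity, 7.03, marked the level below which signal was not taken to exceed background.

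**Figure D1:**
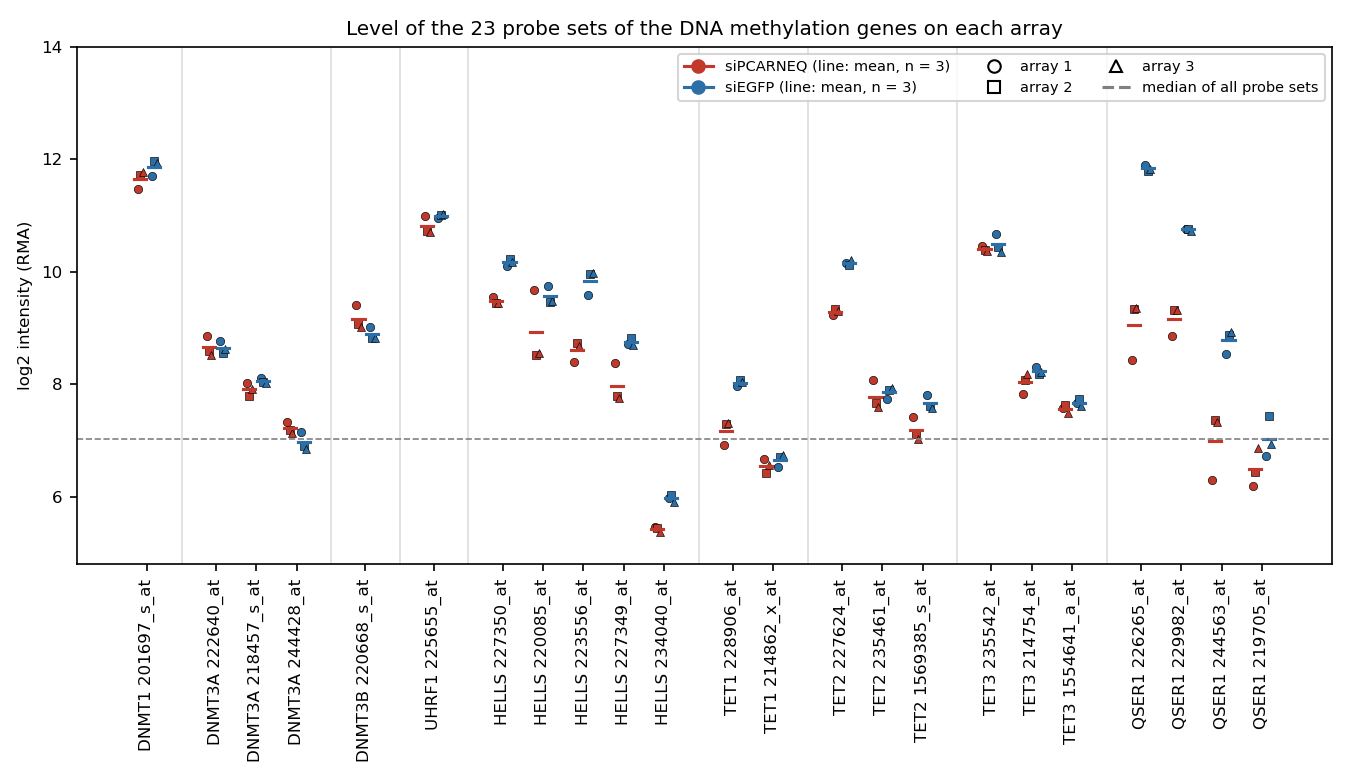
Level of each of the 23 probe sets (log2 intensity after RMA, vertical axis) on the 3 siPCARNEQ arrays (red, left of each pair) and the 3 siEGFP arrays (blue), with the mean of each group as a line and the median of all probe sets, 7.03, dashed. The groups lie apart at 11 probe sets, of HELLS, TET1, TET2, QSER1 and DNMT3A, and in QSER1 the lowest red point is array 1 in all 4 probe sets.

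DNMT1, the maintenance methyltransferase on chromosome 19, had 1 probe set (201697_s_at). Its log2 intensity was 11.47, 11.72 and 11.77 on siPCARNEQ arrays 1 to 3, against 11.71, 11.97 and 11.94 on siEGFP arrays 1 to 3. Array 1 was the lowest in each group. The 2 groups overlapped, because siEGFP array 1 lay just below siPCARNEQ arrays 2 and 3. The difference was -0.22 (SE 0.11, n = 3 per group), and -0.24, -0.25 and -0.17 for arrays of the same number. It did not pass with all 6 arrays, nor with any 1 array left out, where it ranged from -0.30 without siEGFP array 1 to -0.13 without siPCARNEQ array 1. With arrays 2 and 3 alone, a setting chosen after seeing the data, it was -0.21 and passed.

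UHRF1, the reader that brings DNMT1 to replicated DNA, also had 1 probe set (225655_at). It lay at 11.0015, 10.73 and 10.71 on siPCARNEQ arrays, against 10.96, 11.02 and 11.03 on siEGFP arrays. Arrays 2 and 3 were lower in siPCARNEQ, while array 1 was level with the siEGFP arrays. The difference was -0.19 (SE 0.10) with all arrays and did not pass, and it passed at -0.28 without siPCARNEQ array 1 and at -0.30 with arrays 2 and 3 alone. Leaving out any other array gave -0.14 to -0.21 without passing.

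HELLS, on chromosome 10, had 5 probe sets, of which 4 fell. The brightest (227350_at) was at 9.55, 9.44 and 9.44 on siPCARNEQ arrays, against 10.11, 10.24 and 10.18 on siEGFP arrays. Every siPCARNEQ array was below every siEGFP array, and the difference was -0.70 (SE 0.07). The largest fall was at 223556_at, with 8.39, 8.74 and 8.68 on siPCARNEQ arrays against 9.58, 9.97 and 9.98 on siEGFP arrays, a difference of -1.24 (SE 0.14). That is a fall of 2.36-fold, and it was nearly equal in each array number (-1.19, -1.23 and -1.29).

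The other HELLS probe sets show how much array 1 mattered. At 220085_at the siPCARNEQ arrays gave 9.68, 8.53 and 8.56, against 9.75, 9.46 and 9.48 on siEGFP arrays. Array 1 of siPCARNEQ lay as high as the siEGFP arrays, and the difference of -0.64 (SE 0.30) did not pass. It was -1.02 without siPCARNEQ array 1 and -0.93 with arrays 2 and 3 alone, and passed in both. At 227349_at the difference was -0.77 (SE 0.17), with -0.34 in array 1 and -0.99 in arrays 2 and 3, and the call was lost when any 1 of the arrays other than siPCARNEQ array 1 was left out. The dimmest, 234040_at, was below the median level in both groups (5.43 ± 0.05 in siPCARNEQ and 5.97 ± 0.06 in siEGFP, SD, n = 3) with a difference of -0.55. The high 3'/5' ratio of ACTB fell on that same siPCARNEQ array 1, and its part in these values was not tested.

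DNMT3A and DNMT3B, the de novo methyltransferases, did not pass in any probe set with all 6 arrays. For DNMT3A the brightest probe set (222640_at) lay at 8.85, 8.60 and 8.52 on siPCARNEQ arrays, against 8.76, 8.55 and 8.64 on siEGFP arrays, a difference of 0.01 (SE 0.11). Its other probe sets pointed in opposite directions. At 218457_s_at the difference was -0.15 (SE 0.08), with the groups just apart, and at 244428_at it was 0.26 (SE 0.11).

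DNMT3B had 1 probe set (220668_s_at), with 9.41, 9.08 and 9.01 on siPCARNEQ arrays against 9.02, 8.83 and 8.82 on siEGFP arrays. It was the only 1 of the 9 genes with its brightest probe set higher by more than 0.1, at 0.28 (SE 0.12). The groups touched at a single pair of values, siPCARNEQ array 3 and siEGFP array 1. The difference was positive in all 3 array numbers (0.39, 0.25 and 0.19). It ranged from 0.15 without siPCARNEQ array 1 to 0.35 without siPCARNEQ array 3, and did not pass with any 1 array left out. With arrays 2 and 3 alone it passed at 0.22, as did DNMT3A 244428_at, whose siEGFP mean lay below the median level.

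The TET enzymes had 8 probe sets, of which 3 fell. TET1 (228906_at), on chromosome 10, was at 6.92, 7.29 and 7.31 on siPCARNEQ arrays, against 7.96, 8.07 and 8.04 on siEGFP arrays. Every siPCARNEQ array was lower, array 1 lying below the median level of 7.03, and the fall was 1.80-fold (-0.85 on the log2 scale, SE 0.12). The second TET1 probe set, 214862_x_at, whose suffix marks probes that may match other transcripts, was below the median level in both groups and differed by -0.10 (SE 0.10).

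TET2 (227624_at), on chromosome 4, had 9.23, 9.34 and 9.30 on siPCARNEQ arrays, against 10.16, 10.12 and 10.21 on siEGFP arrays. Arrays of a group lay close together and the groups far apart, and the fall was 1.83-fold (-0.87, SE 0.07). At 1569385_s_at TET2 fell by 0.48 (SE 0.12), a call that was lost when any 1 of the arrays other than siPCARNEQ array 1 was left out. At 235461_at the siPCARNEQ arrays gave 8.08, 7.67 and 7.59, against 7.73, 7.90 and 7.94 on siEGFP arrays. Array 1 there was higher in siPCARNEQ and arrays 2 and 3 lower, so the difference was -0.08 (SE 0.14) over all arrays and -0.29 in arrays 2 and 3 alone, where it passed.

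TET3 did not pass in any of its 3 probe sets under any setting tried. The brightest (235542_at) lay at 10.46, 10.38 and 10.38 on siPCARNEQ arrays, against 10.68, 10.45 and 10.35 on siEGFP arrays, with overlap and a difference of -0.08 (SE 0.10). The others differed by -0.20 (SE 0.11) and -0.11 (SE 0.07). Whether the difference was unlike between TET2 and TET3 was not tested, since the genes were chosen with this comparison known.

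QSER1, on chromosome 11, had the largest difference of the 9 genes. At 226265_at the siPCARNEQ arrays were at 8.43, 9.35 and 9.37, against 11.89, 11.79 and 11.83 on siEGFP arrays. The groups were far apart, and siPCARNEQ array 1 was lower still than arrays 2 and 3. The difference of -2.79 (SE 0.24), a fall of 6.92-fold, ranked 12th lowest of all 54613 probe sets. It was -3.46 between the arrays numbered 1 and -2.46 for arrays 2 and 3, so it was large in both.

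The other QSER1 probe sets had smaller falls. At 229982_at the siPCARNEQ arrays gave 8.86, 9.32 and 9.32, against 10.76, 10.77 and 10.74 on siEGFP arrays, a fall of 3.002-fold (-1.59, SE 0.13). At 244563_at they gave 6.30, 7.36 and 7.33, against 8.54, 8.87 and 8.93 on siEGFP arrays, a difference of -1.78 (SE 0.29). There siPCARNEQ array 1 and the siPCARNEQ mean, 6.996, were below the median level of 7.03, so the value is a difference from signal not shown to exceed background and no fold is given. The dimmest, 219705_at, had 6.20, 6.45 and 6.86 on siPCARNEQ arrays against 6.72, 7.45 and 6.93 on siEGFP arrays, overlapped, and did not pass (-0.53, SE 0.23).

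**Figure D2:**
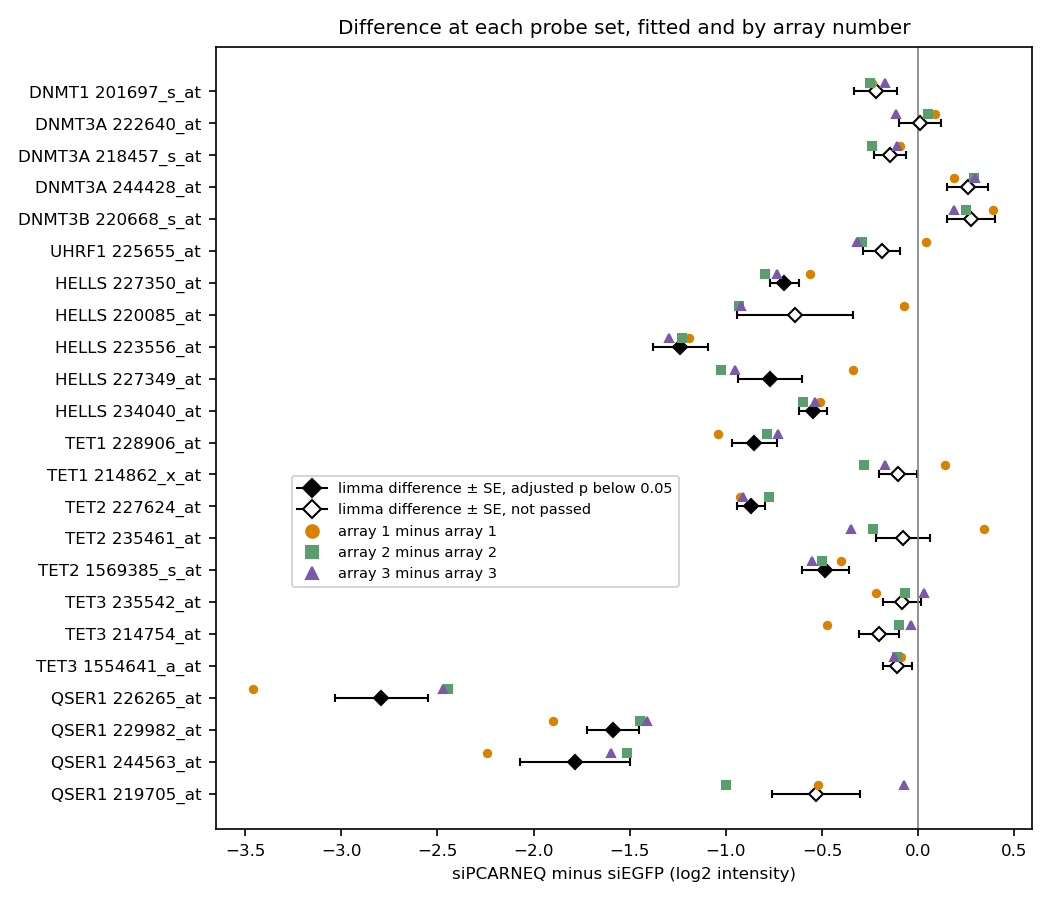
siPCARNEQ minus siEGFP at each of the 23 probe sets (log2 intensity, horizontal axis), as the limma difference with its SE (diamonds, filled where the adjusted p was below 0.05, n = 3 per group) and as the difference between arrays of the same number (small symbols). QSER1 226265_at is farthest to the left at -2.79, and the array 1 difference lies apart from those of arrays 2 and 3 at several probe sets, among them UHRF1 225655_at, HELLS 220085_at and 227349_at, TET1 214862_x_at, TET2 235461_at, TET3 214754_at and 3 of QSER1.

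Probe sets of the same gene gave unequal differences. Among those at or above the median level in both groups, QSER1 had -2.79 and -1.59, HELLS had -0.64 to -1.24, TET2 had -0.08 to -0.87, TET3 had -0.08 to -0.20, and DNMT3A had 0.01 and -0.15. Probe sets of QSER1, HELLS, TET1 and DNMT3A that lay below that level in a group are left out of these ranges. The probe sets of QSER1, HELLS, TET1, TET2 and TET3 all had negative differences, and those of DNMT3A had both signs. In 11 of the 23 the siPCARNEQ arrays all lay below the siEGFP arrays and in 0 all above, where 19.1% and 18.6% of all probe sets did so. Counted by gene at the brightest probe set, 4 of 9 fell, with a median difference of -0.22, where 10.6% of all genes fell and the median was -0.01.

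With arrays 2 and 3 of a group averaged as 1 replicate, 4 of the 10 probe sets passed, where 1177 of all 54613 probe sets fell. The 4 were QSER1 226265_at and 229982_at, HELLS 223556_at and TET2 227624_at. Fitted on arrays 2 and 3 alone, a setting chosen after seeing the data, 14 probe sets fell and 2 rose. In that fit 8026 of all 54613 probe sets fell and 9078 rose, against 4702 and 5420 with all arrays. A pass gained only there is therefore not read as a finding about these genes.

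The genes most like QSER1 across the 6 arrays were C6orf120, PAQR3 and TMTC3, by the root mean square difference of the centred log2 values at the brightest probe set. That distance was 0.10, 0.13 and 0.15 log2 units among 19774 other genes, and their own differences were -2.70, -2.77 and -2.74. For TET2, the second largest of the 9 by its brightest probe set, they were SSR1, TNRC6A and COMMD2, at a distance of 0.03 to 0.04. Likeness over 6 arrays mainly reflects an equal difference between the groups.

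Other genes of the methylation system were counted at the brightest probe set of each gene, where 10.6% of all genes fell and 13.1% rose. These lists were chosen with earlier results of these data known, so their counts and p-values are given as a description. Among 28 partners and recruiters of the methyltransferases, 8 fell, 1 rose and 19 did not pass (median difference -0.18). CDCA7, which works with HELLS in chromatin remodelling, had 10.41, 10.86 and 10.76 on siPCARNEQ arrays against 11.30, 11.51 and 11.59 on siEGFP arrays, and fell by 0.79 (SE 0.14, limma adjusted p = 0.00823). Its siPCARNEQ arrays all lay below the siEGFP arrays, but a second, dim probe set of CDCA7 did not pass (-0.24). TRDMT1, a relative of the methyltransferases that acts on tRNA, fell by 0.65 in 1 of 3 probe sets (adjusted p = 0.00127), with -0.65 to 0.09 over the 3.

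The heterochromatin protein CBX5 fell by 0.92 (adjusted p = 0.00349) and the histone demethylase KDM1A by 0.60 (adjusted p = 0.00374), while the deacetylase HDAC1 rose by 0.31 (adjusted p = 0.0331). UHRF2, the relative of UHRF1, differed by -0.00 (SE 0.13), DNMT3L, the inactive cofactor of DNMT3A and DNMT3B, by 0.06 (SE 0.07) at a level below the median, and ZBTB24, a factor that controls CDCA7, by -0.01 (SE 0.10). PCNA, the sliding clamp that holds DNMT1 at the fork, fell by 0.45 (adjusted p = 0.0493), and did not pass when any 1 array other than siEGFP array 1 was left out (adjusted p = 0.0569 to 0.169). With arrays 2 and 3 averaged, 1 of the 28 fell, and without probe sets that may match several transcripts 3 fell. Leaving out any 1 of the arrays other than siPCARNEQ array 1 took the single rise away.

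Of 10 readers of methylated CpG, 1 fell, 1 rose and 8 did not pass, with a median difference of 0.04. With the replicate number as a block, 2 fell. ZBTB33 fell by 0.53 (adjusted p = 0.00685) and MBD6 rose by 0.59 (adjusted p = 0.0189). A second probe set of ZBTB33 differed by -0.91 without passing. MBD6 did not pass without siEGFP array 2 or array 3 (adjusted p = 0.0753 and 0.0819), nor at its brightest probe set without possible matches to several transcripts (0.06, adjusted p = 0.756). With arrays 2 and 3 averaged 0 of these 10 readers rose or fell (2 fell and 2 rose at an unadjusted p below 0.05 in limma with all arrays).

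In the removal of methylation and base repair, members moved both ways. Of 24 genes, 5 fell and 7 rose, and 12 did not pass. TDG, the glycosylase that cuts out oxidised methylcytosine after the TET enzymes, had 11.52, 11.43 and 11.35 on siPCARNEQ arrays against 12.83, 12.71 and 12.72 on siEGFP arrays. The groups were well apart, and TDG fell by 1.32 (SE 0.08, adjusted p = 0.000195), with -1.31 in array 1 and -1.32 in arrays 2 and 3. A second probe set of TDG differed by -0.63 without passing, and both have suffixes that mark possible matches to several transcripts.

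The base repair glycosylases NEIL3 and NTHL1 fell by 0.99 (adjusted p = 0.012) and 0.49 (adjusted p = 0.0123), and NEIL3 did not pass without siEGFP array 2 or array 3 (adjusted p = 0.0544 and 0.0564). Among the rises were IDH2 by 0.47 (adjusted p = 0.00328), an enzyme that makes the 2-oxoglutarate that TET enzymes use, and the stress-induced GADD45G and GADD45A by 0.56 and 0.52 (adjusted p = 0.00307 and 0.00423). MBD4, a glycosylase and reader, differed by 0.36 (SE 0.16) without passing. The list's median difference was 0.14 at the brightest probe sets and -0.02 over the mean of all probe sets. With arrays 2 and 3 averaged, 1 of the 24 fell and 0 rose. Without siEGFP array 2, and likewise without array 3, 2 fell and 4 rose, and without siPCARNEQ array 2 or array 3, 3 fell.

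In the cycle that supplies methyl groups, 5 of 21 genes fell, 2 rose and 14 did not pass (median difference -0.13). MTR, methionine synthase, had 8.95, 9.30 and 9.15 on siPCARNEQ arrays against 11.14, 11.30 and 11.31 on siEGFP arrays. It fell by 2.12 (SE 0.11, adjusted p = 0.000136) at this probe set, but its other probe set differed by 0.11. GNMT, which consumes methyl donor, rose by 1.22 (adjusted p = 0.000411), with every siPCARNEQ array above every siEGFP array. AHCYL2 rose by 0.75 (adjusted p = 0.0036) in 1 of 2 probe sets and did not pass over their mean (adjusted p = 0.0725).

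MAT2A, which makes the methyl donor S-adenosylmethionine, fell by 0.40 (SE 0.09, adjusted p = 0.0262), and did not pass when any 1 of the arrays other than siPCARNEQ array 1 was left out (adjusted p = 0.0693 to 0.0886). A second probe set of MAT2A differed by -0.96 without passing. AHCY, which clears the product of methylation, differed by -0.13 (SE 0.12). MTHFD1 and TYMS, of folate metabolism, fell by 0.47 and 0.94 (adjusted p = 0.0179 and 0.0206), and neither passed without siEGFP array 2 or array 3 (adjusted p = 0.0762 to 0.0854). The other MTHFD1 probe set differed by -0.10 without passing, while all 3 of TYMS fell. Averaging arrays 2 and 3 left 1 of the 21 that fell and 1 that rose, and without siEGFP array 1 the number that fell was 3. Without siEGFP array 2, and likewise without array 3, it was 1.

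Of 34 genes of S-phase replication, 29 fell and 5 did not pass, where 10.6% of all genes fell. None was higher (0 also at an unadjusted p below 0.05 in limma). DNMT1, UHRF1 and HELLS, usually counted among such genes, were not in this list. PCNA and TYMS were in it as well as in the lists above. The list's median difference was -0.77, which can be set beside -0.70 for HELLS, -0.22 for DNMT1 and -0.19 for UHRF1. GINS1 and MCM6, of the replicative helicase, fell by 2.04 and 1.79 (adjusted p = 8.02e-05 and 0.000522), and the clamp loader subunit RFC3 by 1.13 (adjusted p = 0.000566). Taken by array number, the list's median stood at -0.77 for array 1 and -0.78 for arrays 2 and 3. The count was 6 with arrays 2 and 3 averaged, 17 without siEGFP array 2 and likewise without array 3, and 19 without probe sets that may match several transcripts. In bulk RNA, fewer cells in S phase and less RNA per cell cannot be told apart.

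**Figure D3:**
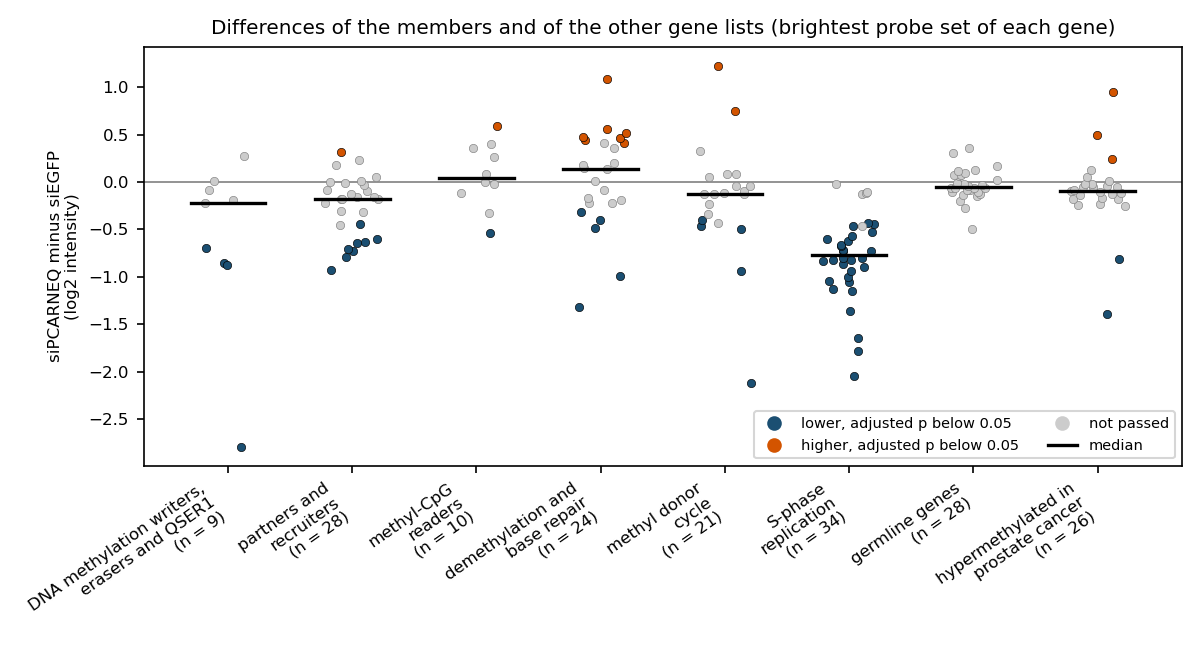
siPCARNEQ minus siEGFP (log2 intensity, vertical axis) at the brightest probe set of each of the 9 genes and of each gene in 7 other lists, with filled blue or orange points for genes past the threshold and a line at each median. QSER1 is the lowest point of the 9 at -2.79, the replication genes centre on -0.77, and the germline genes, of which 8 of 28 lie above the median level in each group, run from -0.50 to 0.36.

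Genes that are commonly silent through methylation were read out on the same arrays, since the deposited values hold no measure of methylation itself. Of 28 germline genes that somatic cells keep methylated, 0 rose and 0 fell (1 rose and 1 fell at an unadjusted p below 0.05 in limma). Their median difference was -0.05, and 8 of the 28 lay above the median level in each group. Among these were PRAME and MAGEA10, with siEGFP means of 11.10 and 10.51, so the list was not silent throughout in these cells. The block fit, in which arrays of the same number are paired, had 2 that rose, and a fit on arrays 2 and 3 alone had 4 that rose and 1 that fell. With the mean of a gene's probe sets 1 rose and 1 fell, with log2(intensity + 32) 1 rose, and without siEGFP array 1, or without probe sets that may match several transcripts, 1 fell. Leaving out probe sets below the median level gave 1 rise and a median difference of 0.11.

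Of 26 genes often hypermethylated in prostate cancer, 3 rose, 2 fell and 21 did not pass, where 13.1% of all genes rose and 10.6% fell. GSTP1 was at 7.85, 7.93 and 7.90 on siPCARNEQ arrays, against 7.83, 7.95 and 7.86 on siEGFP arrays, a difference of 0.01 (SE 0.07). TNFRSF10D, a decoy death receptor, fell by 1.39 (adjusted p = 0.00186) and CDKN2A, a cell cycle inhibitor, by 0.81 (adjusted p = 0.00415). CDKN2A fell in 2 of 3 probe sets, with -1.12 to -0.11 over the 3. The rises were MT1G by 0.95 (adjusted p = 0.0269), AOX1 by 0.49 against siEGFP arrays that all lay below the median level (adjusted p = 0.044), and MGMT by 0.25 (adjusted p = 0.0422). A second, dimmer probe set of AOX1 also rose, by 2.02. The brightest probe sets of CDKN2A, MT1G and AOX1 have suffixes that mark possible matches to several transcripts. At the brightest probe sets, 0 of the 26 rose when any 1 of the arrays other than siPCARNEQ array 1 was left out. With the replicate number as a block, MGMT did not pass (adjusted p = 0.0549). Of the genes named from the 7 lists, TDG, TRDMT1, MTR, GNMT, GINS1, MCM6, RFC3 and TNFRSF10D passed in every alternative that measured them.

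The identity of the cells was checked with marker genes. All 9 measured luminal prostate markers lay above the median level in both groups, and 6 of them rose. Their summed intensity was 68763 to 75816 on siPCARNEQ arrays, against 46898 to 47755 on siEGFP arrays. Of 4 basal markers, 0 lay above the median in siPCARNEQ and 1 in siEGFP, and of 6 immune and endothelial markers, 2 and 3 did so. Of 5 neuroendocrine markers 2 were above the median in each group, and of 7 fibroblast and smooth muscle markers 4. The summed intensity of the fibroblast and smooth muscle markers was 2317 to 2833 on siPCARNEQ arrays, against 1487 to 1509 on siEGFP arrays, with COL1A1 higher by 1.11, LUM higher by 1.39 against a siEGFP mean below the median level, and the other 5 markers not passing. The sum of the basal markers was 316.1 to 341.3 on siPCARNEQ arrays, against 294.1 to 312.99 on siEGFP arrays, with KRT14 higher by 1.02 below the median level. The sum of the neuroendocrine markers was 754.7 to 1110 on siPCARNEQ arrays, against 575.5 to 677.1 on siEGFP arrays, with ENO2 higher by 0.72. That of the immune and endothelial markers was 624.0 to 663.2 on siPCARNEQ arrays and 628.0 to 709.4 on siEGFP arrays, with 0 of 6 past the threshold in limma and 0 at an unadjusted p below 0.05. The part of these shifts in the values of the 9 genes was not tested.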

How the data were processed

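Values are the authors' deposited probe-set intensity on a linear scale, made with RMA, per the submitters' processing notes. RMA subtracts background, equalises the arrays' distributions by quantiles and combines the probes of a set. Its version is not given in the sources used here. The log2 of the deposited intensity was taken with no pseudocount. Of 54675 probe sets, 62 controls were left out. The platform annotation paired 41091 of the rest with 1 gene, 1801 with several and 11721 with none, and probe sets with several genes were not named. Chromosomes and promoter sequences are RefSeq's (GRCh38.p14), with a window at a listed start site for all 9 genes.

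The groups were compared with limma 3.58.1 (lmFit, eBayes; R 4.3.3). The fit used all 6 arrays and no covariate. Its 2-sided p-values were adjusted over all probe sets by Benjamini-Hochberg, with a threshold of 0.05. The fit was tested on simulated data. A gene stood for by its brightest probe set had the highest mean over 6 arrays. The members and gene lists were chosen with earlier results of these data known. Named were all probe sets of the 9 genes, up to 3 genes per list and direction with the smallest p, 10 further genes fixed by name, and the 3 genes most like QSER1 and TET2. List genes without a probe set of their own were not analysed here.

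Replicate numbers 1 to 3 recur in both groups. Same-numbered arrays deviated together from their group means (r = 0.47, 0.30 and 0.34 across probe sets), so the numbers were used as pairs in the block alternative. Arrays 2 and 3 of different groups did so too (r = 0.37 and 0.24), so the check sets array 1 apart but does not tell array 2 from array 3. The labels state no shared day or culture. The alternatives were a replicate block, each array left out, arrays 2 and 3 averaged, arrays 2 and 3 alone (chosen after seeing the data), log2(intensity + 32), a filter at the median level, a further quantile normalization, the mean of a gene's probe sets, and leaving out probe sets that may match several transcripts. Figures used matplotlib 3.10.9.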

Additional observations from a re-analysis of the deposited data

How the results depend on the processing

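Of 291 values of the 23 member probe sets under the alternatives, 286 moved by less than 1 SD between replicates, 5 moved further, and 0 of the values past the threshold changed sign. With the replicate number as a block, 10 member probe sets fell and 0 rose, as without it, and over all probe sets 5731 fell and 6769 rose. In the lists, the block gave 55 genes that fell and 16 that rose, against 48 and 14 without it. Of the named genes, the block took the call of MGMT and of no other. Averaging arrays 2 and 3 left 4 member probe sets, 1177 falls and 1087 rises over all probe sets, and 10 falls and 1 rise in the lists, with fewer samples. Arrays 2 and 3 alone gave 2 member rises, and 8026 falls and 9078 rises over all probe sets. Without probe sets ending in _s_at or _x_at, 3030 probe sets fell, and 30 list genes fell, with fewer tested. Leaving out 1 array gave 8 to 12 member falls, 2775 to 6102 falls and 3048 to 7130 rises over all probe sets, and 30 to 52 falls and 6 to 15 rises in the lists. The median of the demethylation and base repair list was 0.14, but -0.0166 with the mean of all probe sets and -0.0167 without those ending in _s_at or _x_at. The cause was not tested. Signal limits 5 of the 23 probe sets, which lay below the median level in at least 1 group: HELLS 234040_at, TET1 214862_x_at and QSER1 244563_at and 219705_at, and DNMT3A 244428_at.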
